A study of Mus musculus with 12 samples.

Results

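Hoxa5, Hoxa6, Hoxa7, Hoxa9, Hoxa10, Hoxa11 and Hoxa13 are the 7 genes of the middle and posterior HoxA cluster on mouse chromosome 6. DNA methylation of these genes was followed in 12 reduced representation bisulfite sequencing (RRBS) libraries of immortalized mouse embryonic fibroblast (iMEF) lines. All cytosines listed in each of the 12 libraries were taken from 1500 bp upstream of the transcription start site to the end of the gene (mm10). This gave 285 cytosines of 606488 on the autosomes, and 7 gene regions of 20286 with at least 3 such cytosines. The position chr6:52204889 lies in the regions of both Hoxa5 and Hoxa6. The genes had been chosen with the difference between the lines already known. That difference, with its fits for these genes, is therefore given below as a description and not as evidence.

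The experimental line carried R26M2rtTA/+;TetOcre;Sdhcfl/fl and the control line R26M2rtTA/+;TetOcre;Sdhcfl/wt. In both lines doxycycline induces Cre, which removes a floxed exon of Sdhc, a subunit gene of succinate dehydrogenase, and the control line keeps a wild-type allele. Each line had 1 library before doxycycline (day 0) and 1 on each of days 5, 9, 12, 16 and 20, and the comparison set 5 experimental libraries of days 5 to 20 against all 6 control libraries, with experimental day 0 given apart. Each genotype was a single SV40-immortalized line from mouse embryos, so genotype and line cannot be told apart, and p-values measure only the spread between libraries of a line sampled over time.

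The Hox genes encode homeodomain transcription factors that give cells a position along the head-to-tail axis and, for the posterior genes, along the limb. Within a cluster the genes lie in the order in which they act, from anterior to posterior, and fibroblasts keep a Hox pattern that records where in the embryo they came from. CpG islands cover much of the cluster, and methylated CpG islands are generally found at genes that are not transcribed. The methylation files hold no expression values, so neither transcription nor the identity of the cells was checked here.

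The libraries listed from 932307 (control day 12) to 1716381 cytosines (control day 5), and control day 12 also listed the fewest in each of the 7 genes. The deposited value of a cytosine is the percent of reads called methylated, given here as a fraction from 0 to 1. The number of reads is unknown, so no interval was computed for a single cytosine. Neighbouring cytosines can share reads and are not independent. Where both strands of a CpG were measured, the values of the strands differed by 0.0829 to 0.156 on average over 30394 pairs in a library, and by 0.0566 to 0.320 over the 22 pairs in the HoxA regions, most in control day 0.

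At Hoxa5 and Hoxa6 most of the cytosines lay upstream of the start or in the first 500 bases of the gene. The stretches of 250 bases upstream of 3 annotated starts are shown, because they held measured cytosines and stood at different levels. The sequences are RefSeq's (GRCm38.p6), 5′ to 3′ in the direction of the gene, and capitals mark each CpG with a measured cytosine. Hoxa5 (chr6:52204588-52204837, minus strand) held 9 measured cytosines in 8 of its 28 CpGs. Hoxa6 (chr6:52208673-52208922, minus strand) held 5 measured cytosines in 3 of 24 CpGs. The sequence upstream of Hoxa11os, the antisense RNA gene that starts inside Hoxa11, lies within the Hoxa11 gene (chr6:52244993-52245242, plus strand) and held 35 measured cytosines in 32 of 35 CpGs.
Hoxa5: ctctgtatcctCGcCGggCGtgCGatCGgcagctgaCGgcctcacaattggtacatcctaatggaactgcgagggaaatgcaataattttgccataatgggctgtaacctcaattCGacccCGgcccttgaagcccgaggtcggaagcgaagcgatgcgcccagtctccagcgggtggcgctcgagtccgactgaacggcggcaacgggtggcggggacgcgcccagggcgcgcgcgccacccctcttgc
Hoxa6: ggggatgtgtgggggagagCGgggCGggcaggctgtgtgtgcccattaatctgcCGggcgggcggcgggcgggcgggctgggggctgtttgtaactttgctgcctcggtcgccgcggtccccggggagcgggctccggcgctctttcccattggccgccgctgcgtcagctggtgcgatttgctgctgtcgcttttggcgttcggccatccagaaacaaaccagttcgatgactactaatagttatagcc
Hoxa11os: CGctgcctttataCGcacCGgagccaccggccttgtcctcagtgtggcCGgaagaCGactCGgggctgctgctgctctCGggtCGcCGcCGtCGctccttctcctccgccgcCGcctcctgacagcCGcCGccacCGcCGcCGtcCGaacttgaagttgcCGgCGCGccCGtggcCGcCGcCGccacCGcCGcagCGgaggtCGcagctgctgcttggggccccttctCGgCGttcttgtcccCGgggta
The Hoxa6 stretch was methylated at 0.890 ± 0.0254 (SD, n = 5) in the experimental line and 0.416 ± 0.202 (SD, n = 6) in the control line. The Hoxa5 stretch stood at 0.508 ± 0.110 and 0.365 ± 0.154, but on day 0 the order was reversed (0.398 experimental and 0.644 control). The stretch inside Hoxa11 stood at 0.0393 ± 0.0572 and 0.0387 ± 0.0248. The 3 stretches were picked for their different levels, so nothing about the cluster is read from that. The lines were apart at Hoxa6, where the lowest experimental library (0.859) was above the highest control library (0.718).

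The 300-base sequences around the starts of the 7 genes, with 2 starts for Hoxa10, held 4 CpGs (Hoxa9) to 45 CpGs (Hoxa13), against a median of 7 over 32851 RefSeq promoters of that length. The letters CCGG, which the enzyme commonly used for RRBS cuts, were found in 6 of the 8 sequences and in 52.8% of all promoters. CCGG reads the same on both strands. Cytosines listed in all 12 libraries fell in the sequences of Hoxa5 (9) and Hoxa6 (5), and 0 fell in the other 6. The start sites of Hoxa7, Hoxa9, Hoxa10, Hoxa11 and Hoxa13 were therefore judged from cytosines further away.

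Hoxa5 and Hoxa6 were more methylated in the experimental line, and Hoxa9, Hoxa10 and Hoxa13 were more methylated in the control line. Hoxa7 and Hoxa11 were low in both. Hoxa6 and Hoxa9 had the largest differences of the 7, with opposite signs. The ranges of the lines were apart at Hoxa6, with the experimental line higher, and at Hoxa9 and Hoxa10, with it lower. Over all gene regions 6.29% had ranges apart, 4.66% with the experimental line higher and 1.63% with it lower, and nothing is read from the count of 3 because the choice of genes used this contrast. In each of these 5 genes with a difference, the region mean of the experimental line stood on the same side of the control line on all 6 days, day 0 included.

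**Figure D1:**
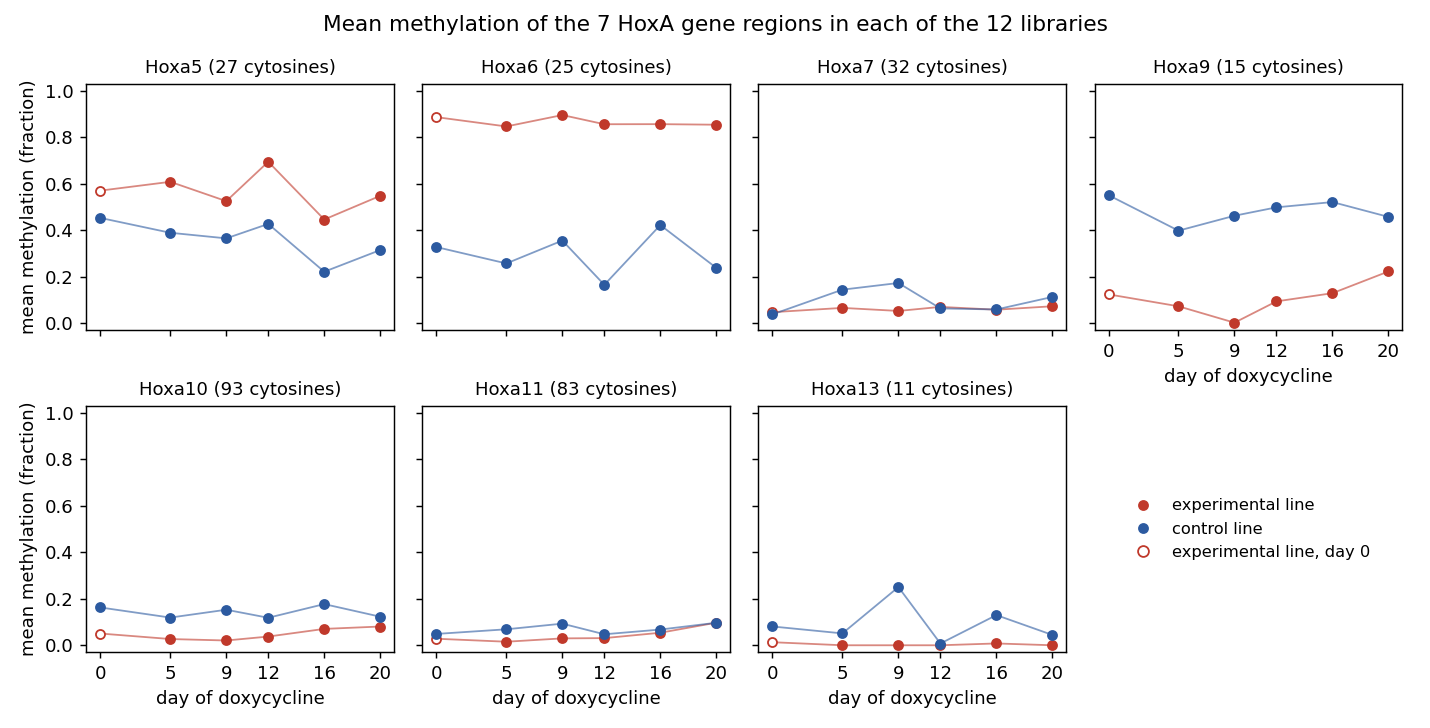
Mean methylation (fraction, vertical axis) of the cytosines of each HoxA gene region against the day of doxycycline (horizontal axis), with 1 point per library, red for the experimental line and blue for the control line. Experimental day 0 is an open circle. Hoxa6 stayed between 0.846 and 0.895 in the experimental line and between 0.165 and 0.422 in the control line, and Hoxa9 showed the opposite order.

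Hoxa6 (52204858 to 52208672), a gene of axial patterning, had 25 cytosines, 15 of them upstream of the start and 9 in the first 500 bases of the gene. The region was methylated at 0.886 in the experimental line on day 0 and at 0.846, 0.895, 0.855, 0.856 and 0.853 on days 5, 9, 12, 16 and 20. The control line gave 0.327, 0.257, 0.355, 0.165, 0.422 and 0.238 on days 0 to 20. Every experimental library was high and every control library was low, with no overlap. The means were 0.861 ± 0.0193 (SD, n = 5) and 0.294 ± 0.0921 (SD, n = 6). The control line varied more from day to day, and on each day the experimental line was higher by 0.434 to 0.691.

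At single cytosines, all 25 in Hoxa6 had a higher experimental mean. At 17 of them the 5 experimental libraries all lay above the 6 control libraries, where 1.1% of all cytosines showed this order. Experimental day 0 was also above all controls at each of the 17. The largest difference was at 52208283, 389 bases into the gene, with 0.875 in 1 experimental library, 1 in the other 4, and 0 to 0.364 in the control libraries. The smallest was at 52208867 (position -195 from the start), with experimental values of 0.417 to 0.938 inside the control range of 0.111 to 1.

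**Figure D2:**
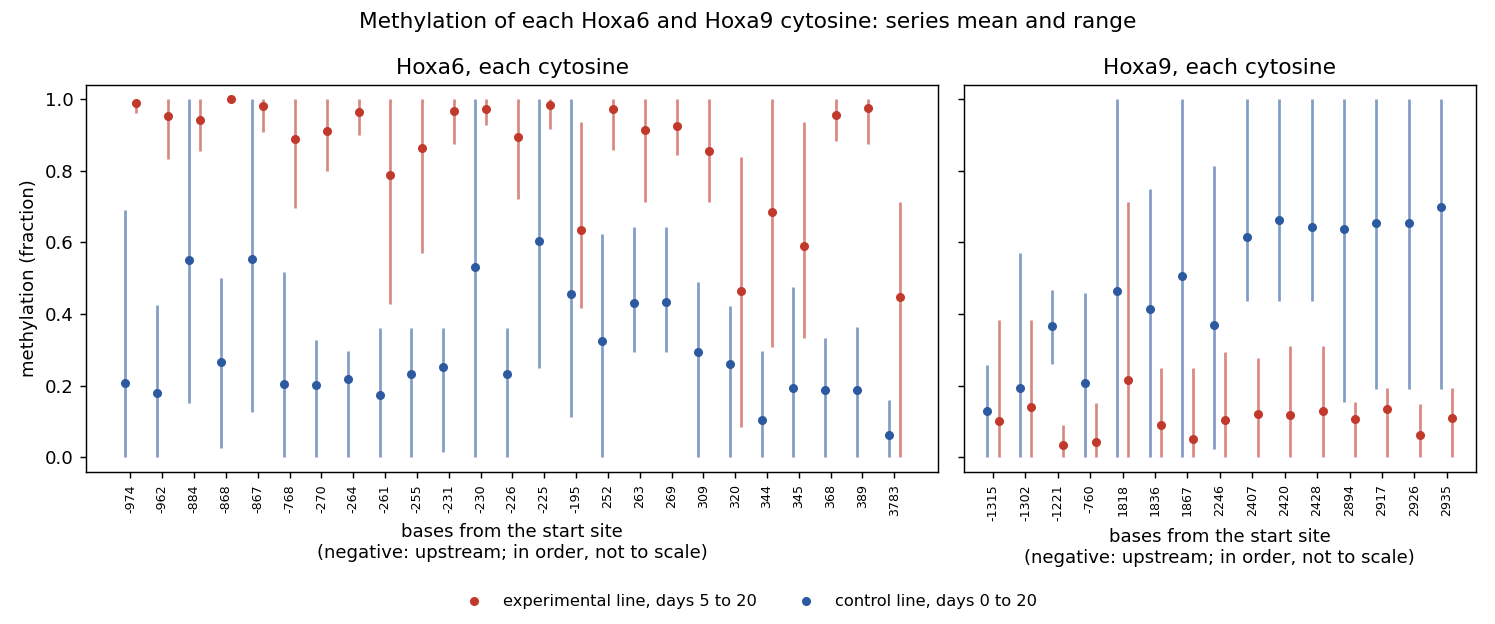
Methylation (fraction, vertical axis) of each cytosine of Hoxa6 (left) and Hoxa9 (right), ordered by the distance from the start site in bases. Points are the series means and bars run from the lowest to the highest library of a series. The experimental line (red) was above the control line (blue) at all 25 Hoxa6 cytosines and below it at all 15 Hoxa9 cytosines, with ranges apart at 17 and 5 of them.

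Hoxa5 (52201754 to 52204587), which acts in lung and axial development, had 27 cytosines. The experimental line gave 0.570 on day 0 and 0.608, 0.525, 0.694, 0.445 and 0.547 on the later days, against 0.452, 0.388, 0.364, 0.427, 0.221 and 0.314 in the control line. On each day the experimental line was higher, by 0.117 to 0.267, but the lowest experimental library (day 16) was under the highest control library (day 0). The means were 0.564 ± 0.0931 and 0.361 ± 0.0840. The higher level was not even along the gene. The 3 cytosines 1595 to 1789 bases into the gene stood at 0.953 ± 0.0391 in the experimental line and 0.288 ± 0.228 in the control line, with ranges apart. The 12 cytosines from 286 to 677 bases into the gene stood at 0.542 ± 0.186 and 0.444 ± 0.227. The 12 from 52204715 to 52204889, upstream of the start, stood at 0.488 ± 0.0821 and 0.297 ± 0.138. The ranges overlapped in each of these. On day 0 the order of the upstream stretch was reversed, at 0.420 in the experimental line and 0.553 in the control line.

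The largest difference at a Hoxa5 cytosine was at 52202798, with 1 in all 5 experimental libraries and 0 to 0.333 in the controls. At 52204301 the order was reversed most, in that the control line was higher (0.582 ± 0.254 against 0.271 ± 0.247) and the ranges overlapped. Intermediate values were the rule at this gene. Of the readings of single cytosines, 62.2% in the experimental line and 45.7% in the control line lay from 0.2 to 0.8. In Hoxa6, 75.2% of the experimental readings were above 0.8 and 60.7% of the control readings lay from 0.2 to 0.8.

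Hoxa7 (52215623 to 52218573), another gene of trunk patterning, was low in both lines. Its 32 cytosines gave 0.0469 in the experimental line on day 0 and 0.0522 to 0.0723 later, with a median of 0.0653. The control line ran from 0.0375 to 0.172 with a median of 0.0878. The ranges overlapped. A pair of cytosines near the start stood apart from the other 30. The cytosine at 52218412, 161 bases into the gene and singled out after its values were seen, was at 0.917 to 1 in the experimental series and at 0.417 to 1 in the control line, with series means of 0.983 and 0.903. The cytosine at 52218376, 36 bases away, was 0 in all 6 experimental libraries and 0 to 0.971 in the control libraries, which is the largest difference in the gene in favour of the control line. In favour of the experimental line it was that at 52217645, which was 0 in 4 of the 6 experimental libraries and in all controls, and 0.385 and 0.400 on experimental days 9 and 20.

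Hoxa9 (52223097 to 52227370), which acts in blood progenitors and in axial patterning, had the reverse order of Hoxa6. Its 15 cytosines gave 0.124 in the experimental line on day 0 and 0.0722, 0.00171, 0.0934, 0.129 and 0.222 on days 5 to 20. The control line gave 0.550, 0.398, 0.462, 0.498, 0.521 and 0.457. Every control library was above every experimental library. The means were 0.104 ± 0.0808 (SD, n = 5) and 0.481 ± 0.0540 (SD, n = 6). On each day the experimental line was lower, with differences of -0.460 to -0.235.

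Of the 15 cytosines of Hoxa9, 11 lay inside the gene and 4 upstream of its start. The upstream 4 stood at 0.223 ± 0.0957 in the control line and 0.0788 ± 0.0797 in the experimental line, with overlapping ranges. Of these, the 3 at 52228591 to 52228685 form a stretch that touches the annotated gene Gm52902. The 4 cytosines 2894 to 2935 bases from the start stood at 0.662 ± 0.345 in the control line and 0.103 ± 0.0592 in the experimental line, and the next 4, at 2246 to 2428 bases, at 0.572 ± 0.145 and 0.118 ± 0.140. Both stretches had ranges apart. The 3 cytosines at 1818 to 1867 bases did not, since control day 0 and day 12 were at 0 there. All 15 cytosines had a lower experimental mean, and at 5 the ranges were apart with the experimental line lower, against 0.795% of all cytosines. The difference was largest at 52224444, with 0 to 0.150 in the experimental series and 0.190 to 1 in the control line, and smallest at 52228685, at position -1315 from the start (0.100 ± 0.162 and 0.128 ± 0.129). With the 25 cytosines listed in the 11 libraries other than control day 12, the means were 0.126 ± 0.114 (SD, n = 5) and 0.382 ± 0.0538 (SD, n = 5), and the ranges were still apart (0.0549 to 0.321 and 0.330 to 0.466).

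Hoxa10 (52231197 to 52240854), which is needed in the uterus and in posterior patterning, showed the same order at a lower level. Its 93 cytosines gave 0.0505 on experimental day 0 and 0.0268, 0.0205, 0.0375, 0.0704 and 0.0806 later, against 0.163, 0.119, 0.153, 0.118, 0.177 and 0.123 in the control line. The series did not overlap, with means of 0.0472 ± 0.0268 and 0.142 ± 0.0254. Most of its cytosines lay in 2 stretches. In the first part of the gene, 26 cytosines stood at 0.0169 ± 0.0185 and 0.0793 ± 0.0297. Downstream of the internal start, 65 cytosines stood at 0.0595 ± 0.0386 and 0.167 ± 0.0320. The stretch of these 65 also touches the annotated gene Gm52902, so the genes cannot be told apart where they overlap. At 3 cytosines the ranges were apart, all with the experimental line lower, and these 3 lay within 19 bases of each other (52233479 to 52233497). The largest difference was there, at 52233494 (0.0428 ± 0.0706 and 0.454 ± 0.217). The largest in the other direction was at 52233269 (0.261 ± 0.180 and 0.103 ± 0.125), with overlapping ranges.

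Hoxa11 (52242105 to 52245810), a gene of the lower limb segments and the uterus, was low in both lines. Its 83 cytosines gave 0.0281 on experimental day 0 and 0.0152, 0.0296, 0.0307, 0.0539 and 0.0971 later, and 0.0488, 0.0687, 0.0930, 0.0473, 0.0676 and 0.0968 in the control line. The ranges overlapped, and on day 20 the lines differed by 0.000337. The 25 cytosines upstream of the start stood at 0.0315 ± 0.0176 and 0.0858 ± 0.0421, and with control day 12 left out the promoter ranges were apart (39 cytosines, 0.0114 to 0.0380 and 0.0819 to 0.115). The mean difference of the whole region was -0.0250, while the median over cytosines gave 0.00526. At 52244639 all 6 experimental libraries were at 0 and the control libraries ran from 0 to 0.795, the largest difference of the gene in the direction of the control line. In the other direction the largest was at 52244722 (0.185 ± 0.131 and 0.0836 ± 0.0743). All 83 cytosines also lie in the region of Hoxa11os, so the genes cannot be told apart here.

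Hoxa13 (52258853 to 52260880), which forms the digits and the genital tract, had 11 cytosines, all of them inside the gene. The experimental line was at 0 on days 5, 9, 12 and 20, at 0.00777 on day 16 and at 0.0131 on day 0. The control line gave 0.0808, 0.0510, 0.250, 0.00758, 0.130 and 0.0445, and control day 12 was under experimental day 16, so the ranges just overlapped. The means were 0.00155 ± 0.00347 and 0.0940 ± 0.0868. The largest difference was at 52259259 (0 in all 5 experimental libraries of days 5 to 20, 0 to 0.667 in the controls) and the smallest at 52259341 (0.00800 ± 0.0179 and 0.0111 ± 0.0189). This difference depended on which cytosines were counted. With the 47 listed in the 11 libraries other than control day 12, the means were 0.0248 ± 0.0203 and 0.0501 ± 0.0206, and at the promoter, which these libraries covered with 31 cytosines, they were 0.0339 ± 0.0318 and 0.0323 ± 0.0182.

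The change of order lay between Hoxa6 and Hoxa9. Along the cluster, cytosines no more than 300 bases apart were joined into 36 stretches of at least 3 cytosines, a grouping made after the values were seen. Of these, 17 touched a region of the 7 genes. Among the 17, the experimental line was wholly above the control line in 4 and wholly below it in 4, against 3.3% and 1.77% (5.07% in all) of 69845 such stretches on the autosomes. The 4 higher stretches lay from 52202798 to 52209646, in Hoxa5 and Hoxa6. The 4 lower ones lay from 52224435 to 52240701, in Hoxa9 and Hoxa10.

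**Figure D3:**
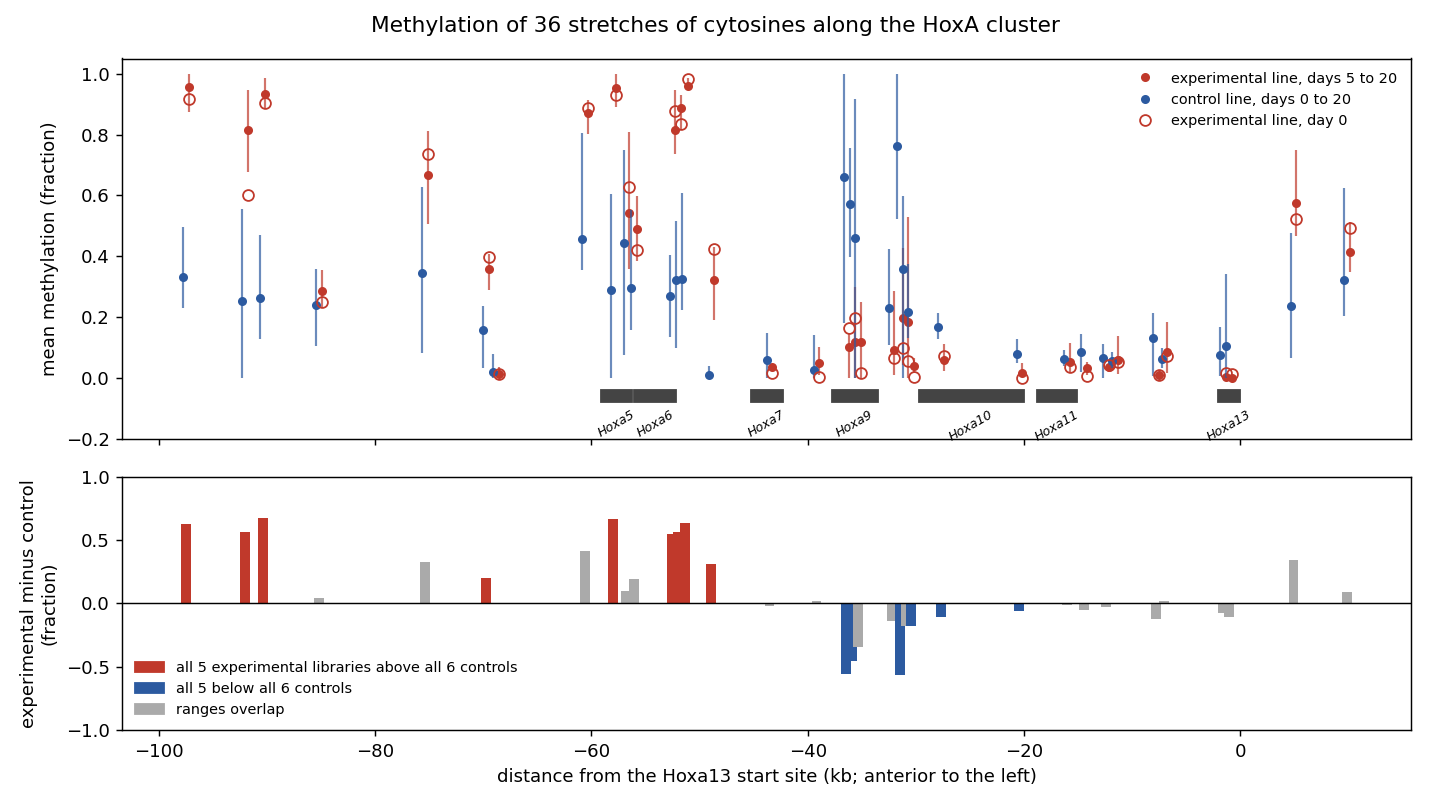
Mean methylation (fraction) of 36 stretches along the HoxA cluster against the distance in kb from the Hoxa13 start site, with points for the series means, bars from the lowest to the highest library and open circles for experimental day 0 (top), and the difference of the series means (bottom). Stretches up to the one beyond Hoxa6 were higher in the experimental line or overlapped. Those of Hoxa9 were lower or overlapped, and those of Hoxa10 were lower. Hoxa7, Hoxa11 and the spacer before Hoxa13 were low in both lines.

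Between Hoxa6 and Hoxa7, a stretch of 8 cytosines at 52211866 to 52212063 was at 0.189 to 0.432 in the experimental series and at 0 to 0.0411 in the control line. It was the last stretch toward Hoxa13 at which the experimental line was wholly higher. The next, the 30 cytosines of Hoxa7, stood at 0.0348 ± 0.00855 and 0.0581 ± 0.0587, and 7 cytosines between Hoxa7 and Hoxa9 at 0.0484 ± 0.0377 and 0.0272 ± 0.0569. Between Hoxa9 and Hoxa10, 3 cytosines at 52229424 to 52229448, in the annotated gene Gm52902, were at 0.199 ± 0.170 and 0.763 ± 0.152. Beyond Hoxa13, 4 cytosines in Hottip, a noncoding RNA gene at the posterior end, were again higher in the experimental line (0.577 ± 0.112 and 0.237 ± 0.149), with ranges that overlapped.

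Over all 285 cytosines, the experimental mean was higher at 114, lower at 151 and equal at 20. The ranges were apart with the experimental line higher at 18 (17 in Hoxa6 and 1 in Hoxa5) and lower at 9 (5 in Hoxa9, 3 in Hoxa10 and 1 in Hoxa11). Over all cytosines the ranges were apart at 1.9%. Experimental day 0 was on the same side of all controls at 18 of the 18 and at 6 of the 9, and over the autosomes at 84.9% and 83.2% of such cytosines. On day 0, before doxycycline, the lines differed by 0.559 at Hoxa6, 0.117 at Hoxa5, -0.427 at Hoxa9, -0.112 at Hoxa10 and -0.0677 at Hoxa13. Each line had 1 library on day 0, so these values have no replicate check. They also moved with the cytosines counted. With all cytosines listed in both day 0 libraries the difference was 0.418 at Hoxa6, 0.278 at Hoxa5, -0.137 at Hoxa9, -0.0854 at Hoxa10 and -0.0134 at Hoxa13, each with the same sign.

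The series means of single cytosines also varied within a gene. Across the cytosines of Hoxa6 they had an SD of 0.165 in the experimental line and 0.151 in the control line, and across those of Hoxa9 an SD of 0.0460 and 0.193. The spread over days at a typical cytosine was smaller in the experimental line (median SD 0.0591 over the 285) than in the control line (0.126). In Hoxa6 it was 0.0711 against 0.163, in Hoxa9 0.112 against 0.270 and in Hoxa5 0.253 against 0.296. Readings at exactly 1 made up 44% in Hoxa6 in the experimental line and 4.67% in the control line. Readings at exactly 0 made up 68.4% and 51.8% in Hoxa10. Whether the smaller spread came from readings at these limits was not tested, and no value over all cytosines is given here.

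In the fit of the line difference across all 20286 gene regions (limma on M-values, the log2 ratio of methylated to unmethylated fraction), 1003 regions or 4.94% passed an adjusted p of 0.05, 3.65% with the experimental line higher and 1.3% lower. Of the 7 HoxA regions 4 passed, Hoxa6 with an M-value difference of 3.85 ± 0.293 (SE), and Hoxa9, Hoxa10 and Hoxa13 with -3.39 ± 0.678, -1.68 ± 0.303 and -2.91 ± 0.632. Hoxa5 was at 1.21 ± 0.313, Hoxa7 at -0.461 ± 0.364 and Hoxa11 at -0.713 ± 0.365. The median of the 7 was -0.713, beside 0.0748 over all regions. Since the genes were chosen on this contrast, the count is a description only. Hoxa13 passed in 3 of 11 fits that left out 1 library, Hoxa9 in 10 and Hoxa6 and Hoxa10 in all 11. Without experimental day 5, 2 of the 7 passed. At the level of cytosines, 11 of 266 that varied passed, 9 in Hoxa6 and 1 in Hoxa5 with the experimental line higher and 1 in Hoxa9 with it lower, against 0.615% of 508351 (0.335% higher and 0.279% lower).

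Whether methylation of these genes moved with the days of treatment was tested by the slope of the M-value on the day in each line. The genes were chosen on the difference between the lines, with earlier results of these data known. Independence of the slopes from that choice was not checked. No slope passed in either line, nor did a difference of the slopes (limma, adjusted p = 1 for each of the 7 regions in all 3 comparisons). Over all 20286 regions 0% passed. Unadjusted p-values under 0.05 were found for 974 regions (4.8%) in the experimental line, 1045 (5.15%) in the control line and 905 (4.46%) for the difference, and among the 7 for 1, 0 and 0. That 1 was Hoxa11 in the experimental line, at 0.0876 ± 0.0254 (SE) per day, with an unadjusted p of 0.0069 by limma. Its experimental values were lowest on day 5 and highest on day 20, and the difference from the control slope was 0.0581 ± 0.0359 per day. Without experimental day 20 the slope was 0.0551 per day, and with day 0 of both lines left out it was 0.140, with an adjusted p of 0.690 by limma. Hoxa10 then had 0.114 ± 0.0271 per day (adjusted p = 0.710) where it had 0.0503 ± 0.0280 with day 0.

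The experimental slopes of the other 6 ran from -0.0299 ± 0.0689 (Hoxa13) to 0.0682 ± 0.0702 (Hoxa9) per day, and Hoxa6, the most methylated, had -0.0155 ± 0.0311. The control slopes ran from -0.0533 ± 0.0278 (Hoxa5) to 0.0295 ± 0.0254 (Hoxa11). The standard errors were as large as or larger than most of these slopes, so slow changes were not detectable with these libraries. At single cytosines 0 of 266 passed in any of the 3 comparisons, and unadjusted p-values under 0.05 were found at 12 for the experimental slope (4.36% of all cytosines), 11 for the control slope (5.08%) and 15 for the difference (4.17%).

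The neighbouring anterior genes lay on the side of Hoxa5 and Hoxa6. The gene lists of the cluster were chosen with earlier results of these data known, so their counts are a description only. Of the 5 anterior and flanking genes described here, 3 were higher in the experimental line (limma, adjusted p under 0.05) and 0 lower, beside 3.65% and 1.3% of all regions. These were Hoxa2 (0.967 ± 0.0384 and 0.350 ± 0.171, 6 cytosines), Hoxa3 (0.593 ± 0.0277 and 0.284 ± 0.0349) and Hoxa4 (0.354 ± 0.0432 and 0.168 ± 0.0565). The annotated Hoxa3 gene spans the area of Hoxa5 and Hoxa6 and shares 51 of its 134 cytosines with them. It also overlaps Hoxa4, which had 22 cytosines. A stretch of 17 cytosines at 52190942 to 52191303 touches both genes, so Hoxa3 and Hoxa4 are not separate results. Evx1 (0.387 and 0.341) and Skap2 (0.250 and 0.246), which flank the cluster, did not pass. Among the 3 noncoding RNA genes of the cluster that could be tested, Mir196b, which lies between Hoxa9 and Hoxa10, was lower (0.0409 ± 0.0226 and 0.217 ± 0.0880), Hottip was higher (0.430 ± 0.0515 and 0.179 ± 0.0860), and Hoxa11os did not pass.

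The lists in this paragraph were also chosen with earlier results of these data known, so their counts are a description only. Of 15 genes of the HoxB, HoxC and HoxD clusters in the same paralogue groups, 4 were lower in the experimental line and 0 higher (limma, adjusted p under 0.05), beside 1.3% and 3.65% of all regions, with a median M-value difference of -0.433. They were Hoxb5 (0.143 ± 0.0612 and 0.337 ± 0.0202), Hoxb9 (0.0806 ± 0.0205 and 0.209 ± 0.0245), Hoxd10 (0.0754 ± 0.0428 and 0.190 ± 0.0347) and Hoxc9 (0.178 ± 0.0353 and 0.289 ± 0.0561), the last named because it passed and not for its size. Hoxd13 (0.0251 ± 0.0202 and 0.0893 ± 0.0307) had the largest M-value difference of the 15 but an adjusted p of 0.0503. Hoxb5 thus had the opposite order to its paralogue Hoxa5, which itself did not pass. Hoxc5, the other paralogue of Hoxa5, had the same order as Hoxa5 (0.187 ± 0.0362 and 0.147 ± 0.0284) and did not pass. The paralogues of Hoxa9 in HoxB and HoxC had the same order as Hoxa9, while Hoxd9 stood at 0.613 ± 0.0868 and 0.458 ± 0.119 and did not pass. Among 9 genes of the TALE homeodomain cofactors, with which Hox proteins bind DNA, Meis1 passed (0.264 ± 0.0361 and 0.170 ± 0.0258) and 8 did not, where 4.94% of all regions passed. Of 14 Polycomb and Trithorax regulators tested, which keep Hox genes silent or active, 0 passed, a count near that background.

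The profile most like that of the 7 genes was sought among the 36 regions with at least 5 cytosines, a difference of at least 0.3 and no shared region. By Pearson's r over the 12 libraries with the mean of the 7 regions, these were Gpx7 (0.627), C3 (0.563), Gm52678 (0.553), Gm32422 (0.535) and Thbd (0.525). The libraries fall into 2 lines, and r is a description of them. The mean of the 7 regions was 0.189 to 0.268 over the libraries, since members of opposite order offset each other in it.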

How the data were processed

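Genomic DNA of the iMEF lines was bisulfite converted and sequenced by the authors as paired-end reads. Reads were aligned to mm10 with Bismark (version not given in the sources used here), methylation was called with its extractor, and for each CpG cytosine the authors deposited the percent of reads called methylated, with no read counts. Filters the authors applied later are not part of these values. Without read counts a minimum depth could not be required, and values of 0 or 1 may rest on few reads.

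The 7 genes and the gene lists were chosen with earlier results of these data known. Percent values were divided by 100, and cytosines on the autosomes listed in all 12 libraries were averaged per gene region (1500 bp upstream of the start to the gene end, at least 3 cytosines) or promoter (1500 bp upstream to 500 bp downstream). Coordinates and start sites were those of RefSeq for GRCm38.p6, the assembly of mm10. Of 47038 autosomal genes, 25747 had a strand in the RefSeq promoter sequences and 7794 took it by symbol from an earlier annotation, from which no coordinate was used. Where both gave a strand it was the same for 15488 of 15531. Exons and introns were not annotated here.

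M-values, log2((fraction + 0.01)/(1 - fraction + 0.01)), were tested with limma 3.58.1 in R 4.3.3 and Benjamini-Hochberg adjustment (threshold 0.05) over all regions, or over all 508351 cytosines not identical in the 12 libraries. The line difference compared 6 control with 5 experimental libraries, and day slopes used all 12 libraries with line and line by day. Plots and summaries were made with Python 3.11.15 and pandas 2.3.3. The fits were also run on simulated data with independent noise and with changes placed only at features of intermediate mean methylation. That simulation did not cover changes at levels near 0 or 1, such as those of Hoxa13. The genes named are the 7 members, per member the cytosines with the highest and lowest signed difference (experimental minus control), up to 4 of each list by the size of the difference, and the 5 most alike regions. Evx1, Skap2, Hoxc5, Hoxc9 and Hoxd9 were named beyond this rule, after their values were seen. List genes with no strand, with too few cytosines listed in all libraries or off the autosomes were not tested, and a gene of the anterior list is not reported here. Alternatives were other scales, filters, summaries and windows, each library left out, a day block, and, chosen after seeing the data, cytosines listed in the 11 libraries other than control day 12.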

Additional observations from a re-analysis of the deposited data

Results flagged for a closer look

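Of 24 series of region or promoter means over the HoxA genes, 2 held a library far from the others of its series. At Hoxa6, experimental day 9 was at 0.895 while the nearest other experimental library was at 0.856, so that the gap took 0.798 of the whole range, against a critical value of 0.71 for 5 samples. At Hoxa13, experimental day 16 was at 0.00777 and the other 4 experimental libraries of days 5 to 20 were at 0. Chance alone marks about 1 in 20 series. The ranges concerned are small beside the difference between the lines.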

How the results depend on the processing

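No slope passed under any alternative for the HoxA regions. Over all regions 1 passed for the experimental slope with limma on beta values and 0 in every other setting. The line difference over all regions gave 1003 calls, 76 with the median of cytosines, 338 with promoters, and 520 to 1029 when 1 library was left out (586, 667, 520 and 665 without experimental day 5, 9, 12 or 16, and 668, 651 and 588 without control day 5, 9 or 20). Among the 7 HoxA regions 4 passed, 0 with the median, 2 of 5 with promoters, and 2 to 5 when 1 library was left out. Cytosines gave 3124 calls, 5954 on beta values, 5275 with an offset of 0.05, and 2240 to 3741 when 1 library was left out. The deviations of same-day libraries of the lines had correlations from -0.0106 to 0.00306 on days 5 to 20. Whether same-day libraries shared an effect of handling was not tested. For the line difference, the fit with the day as a replicate block also left out control day 0. In it 83 regions, 2 of the HoxA regions and 0 cytosines passed. The 2 were Hoxa6, and Hoxa5, which had an adjusted p of 0.0547 without the block, while Hoxa9, Hoxa10 and Hoxa13 no longer passed (limma, adjusted p = 0.105, 0.0901 and 0.112). The cause of these changes was not tested.

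The difference of series means over the gene region kept its sign at Hoxa5, Hoxa6, Hoxa9, Hoxa10 and Hoxa13 under each alternative run on the region. The Hoxa13 promoter, measured only without control day 12, had the experimental line at 0.0339 and the control line at 0.0323, the other order. With all cytosines a library listed, it reversed at Hoxa7 (from -0.0345 to 0.0239), and was -0.283 at Hoxa9 and -0.0204 at Hoxa13. With the median of cytosines it reversed at Hoxa11 (0.00526), and was 0.703 at Hoxa6 and -0.0338 at Hoxa10. With the cytosines listed in the 11 libraries other than control day 12, it was -0.256 at Hoxa9 and -0.0254 at Hoxa13. With 1 library left out, it was 0.170 to 0.232 at Hoxa5, 0.541 to 0.593 at Hoxa6, -0.407 to -0.352 at Hoxa9, -0.103 to -0.0880 at Hoxa10 and -0.110 to -0.0612 at Hoxa13. With all cytosines listed in both day 0 libraries, the day 0 difference was 0.278 at Hoxa5, 0.418 at Hoxa6, -0.137 at Hoxa9, -0.0854 at Hoxa10 and -0.0134 at Hoxa13. Read depth is unknown, so the counting error of single cytosines was not measured.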
